A study of Mus musculus with 25 samples.

Results

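The comparison described here is that of adult liver IL-7R- type 1 innate lymphoid cells (AL 7R- ILC1s) with natural killer cells of the same organ (AL NK cells), both sorted from wild type C57BL/6 mice (the J substrain in the study's methods) labelled as 8 weeks old. Its members are 4 libraries of AL 7R- ILC1s and 2 libraries of AL NK cells, which are 6 of the 25 libraries of the series, and the 13424 of 46078 genes that passed a filter on low counts. Neither group carried an engineered allele, and the labels name no treatment. In some experiments of the study mice received, shortly before death, a nanobody that blocks an ADP-ribosyltransferase of lymphocytes, and whether these mice did is not stated. AL 7R- ILC1s were gated as CD3- NK1.1+ NKp46+ cells with CD49a, little CD49b and no IL-7R, and AL NK cells as CD3- NK1.1+ NKp46+ cells with CD49b and no CD49a. RNA of sorted cells (2000 per library according to the labels, fewer according to the methods of the study) was amplified with a SMART-seq kit and sequenced in bulk, so fewer cells of a kind and less RNA per cell cannot be told apart. The study calls the libraries biological replicates, and whether each came from its own animal or from a pool is not stated. The p-values weigh a difference by scatter estimated over 18 libraries of 6 groups of the series. Besides the groups compared, these are liver IL-7R+ ILC1s, immature ILC1s and NK cells of bone marrow, and group 1 innate lymphoid cells of fetal liver. Another sort of the same liver, 3 libraries of IL-7R+ ILC1s (AL 7R+ ILC1s, with IL-7R and otherwise the same gate), is used to read single genes.

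Group 1 innate lymphoid cells recognise target cells without a rearranged antigen receptor and depend on the cytokine IL-15. NK cells circulate in blood and kill by releasing perforin and granzymes, and they acquire Ly49 receptors for MHC class I, S1P receptors and a set of maturation genes under the transcription factor Eomes. Liver ILC1s stay in the sinusoids, and are known for CD49a, CXCR6, the death ligand TRAIL, CD200R and the transcription factor Hobit. Both kinds use T-bet.

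Depth and purity were read first. The 6 libraries held 3752189 to 6611584 counts, log2 counts of replicates correlated at 0.958 to 0.966, and no 2 of these libraries agreed within counting noise (chi-square per degree of freedom 6.17 to 9.95). Levels are given as CPM, which are counts scaled to library size with TMM factors, with SD over the 4 and the 2 libraries. Genes of the gate behaved as sorted: *Itga1* (CD49a) had 655, 779.6, 779.6 and 656 CPM in the AL 7R- ILC1 libraries, against 6.46 and 0.508 CPM in the AL NK libraries. *Itga2* (CD49b) had 14.9, 20.2, 22.1 and 15.99 CPM in the AL 7R- ILC1 libraries, against 129.6 and 127 CPM in the AL NK libraries. *Klrb1c* (NK1.1, 2065 and 2287 CPM on average in AL 7R- ILC1s and AL NK cells) and *Ncr1* (NKp46, 1642 and 1726 CPM) did not pass the test. *Il7r* was at 1.82 ± 1.82 CPM in AL 7R- ILC1s and 23.3 ± 6.76 CPM in AL NK cells, against 576 ± 52.2 CPM in AL 7R+ ILC1s. These 5 genes follow the sort and are not counted as findings. *Cd3e*, whose product was gated out in both sorts, had 20.2, 6.63, 10.4 and 36.5 CPM in AL 7R- ILC1s, against 0 and 0 CPM in AL NK cells. Of T cell markers other than *Trbc1*, *Trbc2*, *Trdc*, *Bcl11b* and *Cd28*, 9 genes summed to 40.5 to 106 CPM in AL 7R- ILC1s and 11.02 to 12.5 CPM in AL NK cells. Kupffer and myeloid markers other than *Itgax* summed to 14.3 to 66.1 CPM in AL 7R- ILC1s and 5.59 to 9.12 CPM in AL NK cells, with 2 and 7 of 18 genes at 0. In the same order, 16 hepatocyte markers summed to 12.4 to 17.1 CPM and 3.56 to 4.37 CPM, and 10 red cell and platelet markers to 1.599 to 439.8 CPM and 1.78 to 36.9 CPM. Again in that order, 13 liver endothelial and stellate markers summed to 89.7 to 98 CPM and 71.4 to 73.9 CPM. The 14 ILC2 and ILC3 markers went the other way, with 204 to 237 CPM and 459 to 516 CPM. Sums of the T cell, myeloid, hepatocyte and endothelial markers were thus higher in every AL 7R- ILC1 library. Red cell and platelet markers were high in some libraries of both groups. The part of all these markers in the results was not tested. Mitochondrial rRNA took 1879 to 2701 CPM in AL 7R- ILC1s and 579 to 1031 CPM in AL NK cells, whereas 75 ribosomal protein genes summed to 12101 to 15415 CPM and 14675 to 14921 CPM.

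Differences between the groups were tested by the quasi-likelihood method of edgeR over the 13424 genes, with Benjamini-Hochberg adjustment and a threshold of 0.05. Log2 fold changes (FC) are of AL 7R- ILC1s over AL NK cells and are given ± a standard error. It was derived from the test, as the absolute FC over the square root of the F statistic. An FC that directly follows a level in AL 7R+ ILC1s is of AL 7R- ILC1s over AL 7R+ ILC1s. AL 7R- ILC1s had 1594 genes (11.9%) above AL NK cells and 1580 (11.8%) below them. Counts of called members of each gene list below are to be read against these shares. The median FC of all genes was 0.018. Among the 3174 called genes, 97.9% had libraries of the 2 groups that did not overlap in CPM. The genes were called on these same libraries, so the share is no separate evidence, and it was not computed over all tested genes. Beyond 3 on the log2 scale there were 298 higher and 278 lower genes. With a single AL NK library in the fit, the called genes numbered 957 higher and 1276 lower without replicate 1, and 1111 higher and 1105 lower without replicate 2.

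**Figure D1:**
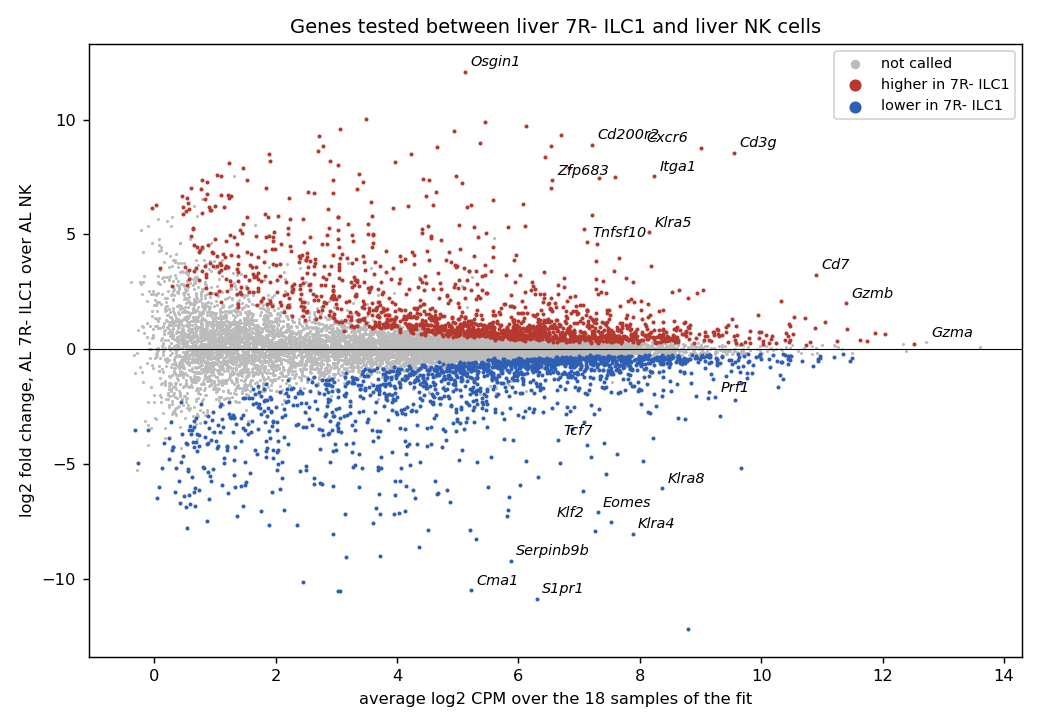
Log2 fold change of AL 7R- ILC1s over AL NK cells (vertical axis) against average log2 CPM over the 18 samples of the fit (horizontal axis), 1 point per gene. Red points are the 1594 genes called higher, blue points the 1580 called lower and grey points those not called. Fitted values of genes at 0 in one group, such as *Osgin1*, depend on a prior count.

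The genes with the widest gaps between the groups included surface receptors, enzymes and trafficking genes. *S1pr1*, the receptor that draws lymphocytes out of tissue along a gradient of sphingosine 1-phosphate, had 1 count over the 4 AL 7R- ILC1 libraries and 1322 counts over the 2 AL NK libraries, a ratio of 2821 (95% counting interval 505 to 111501) in favour of AL NK cells. In the other direction, *Cxcr6*, the receptor for the sinusoidal chemokine CXCL16, had 869, 1186, 966 and 867 CPM in the AL 7R- ILC1 libraries, against 1.14 and 3.56 CPM in the AL NK libraries (FC 8.78 ± 0.27, adjusted p = 6.30e-16). *Osgin1*, encoding an oxidative stress-induced growth inhibitor, had 97.6, 117, 95.4 and 114 CPM in AL 7R- ILC1s, against 0 and 0 CPM in AL NK cells. It was at least 323-fold higher in AL 7R- ILC1s when the absence of counts was read as 3 counts over the AL NK libraries (0.326 CPM). *Atp8a2*, a phospholipid flippase, averaged 263 ± 18.2 CPM in AL 7R- ILC1s and 0.603 ± 0.585 CPM in AL NK cells (FC 8.85 ± 0.48, adjusted p = 4.58e-12). *Adam19*, a membrane metalloprotease, averaged 188 ± 23.9 CPM in AL 7R- ILC1s and 0.539 ± 0.0436 CPM in AL NK cells (FC 8.37). *Gpr34*, a receptor for lysophosphatidylserine, averaged 114 CPM in AL 7R- ILC1s with 1 count in AL NK cells, *Tmem273* 125 CPM with 1 count, and *Mmp9*, encoding a gelatinase, 85.5 CPM with 1 count. In favour of AL 7R- ILC1s, the ratio was 1065 (95% counting interval 191 to 42093) for *Gpr34*, 1164 (95% counting interval 209 to 45981) for *Tmem273* and 816 (95% counting interval 146 to 32246) for *Mmp9*. *Mmp9* was higher still in AL 7R+ ILC1s, at 471.6 ± 65 CPM (FC -2.45 ± 0.37, adjusted p = 1.96e-04). *Ifitm2*, an interferon-induced membrane protein gene, had 15.1, 7.34, 10.1 and 17.9 CPM in AL 7R- ILC1s, against 0 and 0 CPM in AL NK cells, which is at least 36.1-fold higher. Fetal liver cells, at 189 ± 47.5 CPM, raised its average level over the fit. Its place among these genes rests on a fitted FC of 8.97, which depends on a prior count, whereas the bound is 5.17 on the log2 scale.

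Among the genes lower in AL 7R- ILC1s by the widest margins, *As3mt*, an arsenite methyltransferase, averaged 0.611 ± 0.327 CPM in AL 7R- ILC1s and 197 ± 24.6 CPM in AL NK cells (FC -8.27 ± 0.41, adjusted p = 1.14e-12). *Kcnip3*, a calcium-binding partner of potassium channels, averaged 0.42 ± 0.519 CPM in AL 7R- ILC1s and 100.3 ± 2.42 CPM in AL NK cells. *Pdlim1*, a PDZ and LIM domain protein gene, averaged 1.1 ± 1.76 CPM in AL 7R- ILC1s and 118 ± 21.1 CPM in AL NK cells. *Emb*, encoding the membrane glycoprotein embigin, averaged 0.594 ± 0.86 CPM in AL 7R- ILC1s and 128 ± 5.899 CPM in AL NK cells. *Emb* stood at 82.2 ± 7.84 CPM in AL 7R+ ILC1s, so it also differed between the 2 liver ILC1 subsets (FC -7.26 ± 0.31, adjusted p = 9.38e-13), whereas *As3mt* did not pass there (adjusted p = 0.057). The comparison with AL 7R+ ILC1s shares the AL 7R- ILC1 libraries with the one against AL NK cells, and called 6.35% of the genes, 375 higher and 477 lower. By difference in CPM, which is not corrected for gene length, the largest gains in AL 7R- ILC1s were those of *Gzmb*, *Cd7*, *B2m*, *Malat1* and *Cd3g*, and the largest losses included those of *Klra13-ps*, *Prf1*, *Ifngr1* and *Klra8*. *B2m*, the light chain of MHC class I, averaged 5445 ± 176 CPM in AL 7R- ILC1s and 3418 ± 81.1 CPM in AL NK cells (FC 0.67). *Malat1*, an abundant nuclear RNA, averaged 3587 ± 171 CPM in AL 7R- ILC1s and 1572 ± 219 CPM in AL NK cells (FC 1.19).

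Genes of the killing machinery were called in both directions. Granzymes are serine proteases delivered through perforin pores. Of 5 tested granzyme genes, 2 were higher (*Gzmb* and *Gzmc*, encoding granzymes B and C), 2 lower (*Gzmk* and *Gzmm*, encoding granzymes K and M), and *Gzma* (granzyme A) did not pass the test, while *Prf1* (perforin) was lower. *Gzmb* (ENSMUSG00000015437, chromosome 14 from 56258838 to 56262260 of GRCm38) had 6306, 4508, 5271 and 4611 CPM in the AL 7R- ILC1 libraries, against 1068 and 1497 CPM in the AL NK libraries (FC 2.01 ± 0.16, adjusted p = 3.64e-09). The libraries of the 2 groups were far apart, and *Gzmb* averaged 1071 ± 181 CPM in AL 7R+ ILC1s, from which AL 7R- ILC1s also differed (FC 2.27 ± 0.14, adjusted p = 4.09e-10). *Gzmc* (chromosome 14 from 56231441 to 56234656) had 266, 209.9, 221 and 319.7 CPM in the AL 7R- ILC1 libraries, against 1.9 and 2.03 CPM in the AL NK libraries (FC 7.00 ± 0.49, adjusted p = 2.89e-10), and averaged 134 ± 3.63 CPM in AL 7R+ ILC1s. *Gzma* had 10405, 8407, 9362 and 8507 CPM in the AL 7R- ILC1 libraries, against 7356 and 7504 CPM in the AL NK libraries (FC 0.30, standard error 0.16, adjusted p = 0.198). It was called as higher in the fit without a filter (adjusted p = 2.66e-05) and the fit of the 2 groups alone (adjusted p = 0.0121), and in AL 7R+ ILC1s it averaged 1328 ± 105 CPM (FC 2.79 ± 0.16, adjusted p = 9.88e-11). *Gzmk* and *Gzmm*, named after their values were seen, were low in both groups. *Gzmk* had 0.531, 3.05, 1.99 and 0.533 CPM in AL 7R- ILC1s, against 8.93 and 10.9 CPM in AL NK cells (FC -2.58 ± 0.49, adjusted p = 4.17e-04). *Gzmm* had 1.86, 2.69, 2.3 and 3.46 CPM in AL 7R- ILC1s, against 19.2 and 17.03 CPM in AL NK cells (FC -2.81 ± 0.43, adjusted p = 3.15e-05). Per kilobase of exon, the mean levels of *Gzmb* and *Gzmc* were 3603 and 284 CPM per kb in AL 7R- ILC1s, against 893 and 2.2 CPM per kb in AL NK cells.

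*Prf1* (chromosome 10 from 61297833 to 61304680) had 499, 477, 456 and 437 CPM in the AL 7R- ILC1 libraries, against 1872 and 2067 CPM in the AL NK libraries (FC -2.08 ± 0.11, adjusted p = 6.20e-12). The groups did not overlap, and AL 7R+ ILC1s averaged 355 ± 53.1 CPM. On the same stretch of chromosome 14 as *Gzmb* and *Gzmc*, *Cma1*, a mast cell chymase gene (chromosome 14 from 55941451 to 55944675), moved the other way. It had 3 counts over the 4 AL 7R- ILC1 libraries and 2339 counts over the 2 AL NK libraries, a ratio of 1664 (95% counting interval 569 to 8073) in favour of AL NK cells. The 3 genes lie on the minus strand, and no other gene between them reached more than a few CPM on average in either group. The start regions of the 2 granzyme genes are shown because these neighbours were the granzymes that rose (RefSeq, GRCm38.p6, minus strand, 250 bases before to 50 after the annotated start). Capitals mark the letters TGANTCA, to which AP-1 binds, and TGTGGTT, to which RUNX factors bind, on either strand.
Gzmb, chr14:56262285-56262584: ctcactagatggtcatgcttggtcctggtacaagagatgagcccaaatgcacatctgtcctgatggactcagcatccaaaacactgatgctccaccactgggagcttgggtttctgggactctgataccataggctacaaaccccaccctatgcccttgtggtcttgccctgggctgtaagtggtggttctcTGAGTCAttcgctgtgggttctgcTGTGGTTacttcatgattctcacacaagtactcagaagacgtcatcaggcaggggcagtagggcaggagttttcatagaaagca
Gzmc, chr14:56234608-56234907: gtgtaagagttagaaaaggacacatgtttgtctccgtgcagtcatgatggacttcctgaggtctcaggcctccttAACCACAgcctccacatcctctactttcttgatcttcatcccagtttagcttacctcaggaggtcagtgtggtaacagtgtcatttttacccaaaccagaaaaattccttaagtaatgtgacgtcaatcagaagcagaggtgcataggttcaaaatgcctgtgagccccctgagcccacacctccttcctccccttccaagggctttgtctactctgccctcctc
The *Gzmb* window held 1 match to TGANTCA, at base 193, and 1 to TGTGGTT, at base 217, and the *Gzmc* window 1 to TGTGGTT on the other strand, at base 76. Of 32851 promoter windows of the same length, 7.81% held TGANTCA and 5.27% held TGTGGTT. A match describes letters only.

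Of 21 tested genes of granule formation and release, 6 were higher and 6 lower, with a median FC of 0.03. *Srgn*, whose product serglycin packs granzymes in granules, averaged 581 ± 35.3 CPM in AL 7R- ILC1s and 264 ± 38.8 CPM in AL NK cells (FC 1.14). *Adgrg5*, an adhesion receptor gene of lymphocytes, averaged 339 ± 54.2 CPM in AL 7R- ILC1s and 38.8 ± 4.85 CPM in AL NK cells (FC 3.12). *Lyst*, a lysosomal trafficking regulator, averaged 55.6 ± 11.7 CPM in AL 7R- ILC1s and 29.7 ± 1.14 CPM in AL NK cells (FC 0.92). *Cst7* (cystatin F, 354 and 239 CPM in the same order) was called as higher with an FC of 0.56, though not without AL NK replicate 2 (adjusted p = 0.0746). On the lower side, *Lamp1*, a membrane protein of lysosomes and lytic granules, had 39.5, 59.7, 107 and 75.1 CPM in the AL 7R- ILC1 libraries, against 249 and 240.2 CPM in the AL NK libraries (FC -1.79). *Stx11*, a fusion protein of the last step of release, averaged 45.7 ± 8.35 CPM in AL 7R- ILC1s and 122 ± 19.9 CPM in AL NK cells (FC -1.43). *Rab27a*, which docks granules, had an FC of -0.46, a call that was lost without AL NK replicate 1 (adjusted p = 0.11).

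Intracellular serpins, which inhibit serine proteases inside the cell, were called in both directions. Of 7 tested, 3 were higher and 4 lower. *Serpinb9*, the inhibitor of granzyme B, had 292, 230.4, 245 and 237 CPM in the AL 7R- ILC1 libraries, against 1015 and 1131 CPM in the AL NK libraries (FC -2.097 ± 0.09, adjusted p = 1.58e-13). It was thus lower in AL 7R- ILC1s, in which *Gzmb* was higher. *Serpinb9b* had 1.59, 0, 0.153 and 0.266 CPM in AL 7R- ILC1s, against 220.4 and 295 CPM in AL NK cells (FC -9.21 ± 0.56, adjusted p = 3.16e-11). Both genes lie on chromosome 13, with *Serpinb6b* before them (FC -0.99, 197 ± 9.19 CPM in AL 7R- ILC1s and 394 ± 34.1 CPM in AL NK cells). *Serpinb6a*, farther along and on the other strand, was higher (FC 1.14, 42.97 ± 4.75 CPM in AL 7R- ILC1s and 19.4 ± 4.8 CPM in AL NK cells). *Serpina3g* averaged 1240.0 ± 76.5 CPM in AL 7R- ILC1s and 437 ± 70.7 CPM in AL NK cells (FC 1.505). *Serpina3f* averaged 171 ± 24.7 CPM in AL 7R- ILC1s and 30.4 ± 0.245 CPM in AL NK cells (FC 2.49). The last 2 were higher still in AL 7R+ ILC1s, at 1753 ± 149 and 380.5 ± 68.5 CPM (adjusted p = 0.00101 and 2.67e-05). Serpin genes of a subfamily are near copies, so their shares of reads are uncertain.

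Death ligands of the TNF superfamily kill cells that carry their receptors. Of 9 tested TNF superfamily ligands, 5 were higher and 0 lower with edgeR, with a median FC of 0.90. Among the lower values, 1 gene had an unadjusted p under 0.05, and DESeq2 called 0. *Tnfsf10*, encoding TRAIL, had 263, 295, 259.6 and 323 CPM in the AL 7R- ILC1 libraries, against 7.6 and 15.5 CPM in the AL NK libraries (FC 4.67 ± 0.21, adjusted p = 1.61e-13). It stood at 236 ± 0.934 CPM in AL 7R+ ILC1s, which did not differ from AL 7R- ILC1s past the threshold (adjusted p = 0.267). *Ltb*, encoding lymphotoxin beta, averaged 626 ± 16.2 CPM in AL 7R- ILC1s and 114 ± 8.22 CPM in AL NK cells (FC 2.46 ± 0.11, adjusted p = 1.04e-13). *Tnfsf8*, encoding CD30 ligand, averaged 106 ± 16.5 CPM in AL 7R- ILC1s and 5.21 ± 5.22 CPM in AL NK cells (FC 4.44 ± 0.43, adjusted p = 4.90e-08). *Fasl* had 489, 537, 484 and 488 CPM in the AL 7R- ILC1 libraries, against 363 and 384 CPM in the AL NK libraries. Its FC of 0.42 (adjusted p = 0.00206) was not called without AL NK replicate 1 (adjusted p = 0.0989).

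Of 15 tested cytokine and chemokine genes, 3 were higher and 3 lower, which is 20% in each direction against 11.9% and 11.8% of all genes. *Ifng*, the main cytokine of both cell types, averaged 78.4 ± 6.12 CPM in AL 7R- ILC1s and 88.7 ± 7.87 CPM in AL NK cells and did not pass (FC -0.18, standard error 0.20, adjusted p = 0.581). *Xcl1*, a chemokine for cross-presenting dendritic cells, had 413, 315, 413 and 423 CPM in the AL 7R- ILC1 libraries, against 73.5 and 98.4 CPM in the AL NK libraries (FC 2.19 ± 0.19, adjusted p = 8.95e-09). *Il2* was low but higher in AL 7R- ILC1s, at 32.4 ± 3.5 CPM in AL 7R- ILC1s and 0.38 ± 0.537 CPM in AL NK cells (FC 6.16 ± 0.49, adjusted p = 2.30e-09). *Ccl5* averaged 3943 ± 460.0 CPM in AL 7R- ILC1s and 3084 ± 129 CPM in AL NK cells, and its call (FC 0.35) was lost without AL NK replicate 1 (adjusted p = 0.222). *Osm*, encoding oncostatin M, was lower, at 7.398 ± 2.85 CPM in AL 7R- ILC1s and 35.4 ± 13.5 CPM in AL NK cells (FC -2.23 ± 0.37, adjusted p = 9.31e-05).

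**Figure D2:**
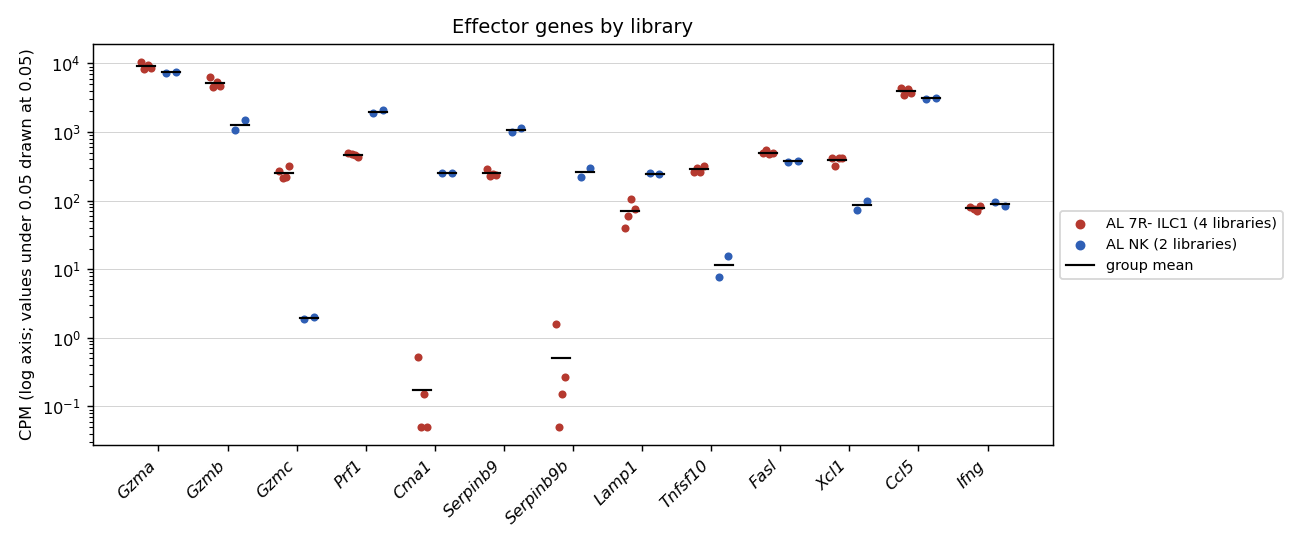
CPM of effector genes (vertical axis, log scale) in each of the 4 AL 7R- ILC1 libraries (red, left of each pair) and the 2 AL NK libraries (blue, right), with the group mean as a line. *Gzmb*, *Gzmc*, *Tnfsf10* and *Xcl1* lie higher in red, *Prf1*, *Cma1*, *Serpinb9*, *Serpinb9b* and *Lamp1* lower, and *Ifng* overlaps.

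Ly49 receptors bind MHC class I and mark subsets of NK cells. Of 11 tested Ly49 genes, 9 were lower in AL 7R- ILC1s, with a median FC of -4.27, and 1 was higher. The lower ones include the pseudogene *Klra13-ps*, so the count is not of receptors alone. *Klra8* (Ly49H, the activating receptor for a cytomegalovirus protein) had 23.6, 13.1, 30.5 and 10.7 CPM in the AL 7R- ILC1 libraries, against 1199.9 and 1443 CPM in the AL NK libraries (FC -6.05 ± 0.30, adjusted p = 9.01e-13). *Klra4* (Ly49D, activating) had 6.63, 1.43, 3.99 and 2.13 CPM in the AL 7R- ILC1 libraries, against 900.2 and 902 CPM in the AL NK libraries (FC -8.03 ± 0.21, adjusted p = 5.70e-17). *Klra7* (Ly49G) averaged 24.3 ± 6.19 CPM in AL 7R- ILC1s and 701 ± 139 CPM in AL NK cells (FC -4.85 ± 0.26, adjusted p = 3.06e-12). *Klra1* (Ly49A) averaged 3.64 ± 4.25 CPM in AL 7R- ILC1s and 85.3 ± 5.13 CPM in AL NK cells (FC -4.68 ± 0.45, adjusted p = 1.14e-07). *Klra3* (Ly49C) averaged 40.2 ± 10.2 CPM in AL 7R- ILC1s and 245 ± 25.01 CPM in AL NK cells (FC -2.61 ± 0.42, adjusted p = 6.71e-05). The exception was *Klra5* (Ly49E), the Ly49 gene of fetal and neonatal NK cells, with 602, 509, 606 and 477 CPM in the AL 7R- ILC1 libraries, against 19.2 and 12.5 CPM in the AL NK libraries (FC 5.09 ± 0.47, adjusted p = 2.72e-08). Every AL 7R- ILC1 library was far above both AL NK libraries, and AL 7R+ ILC1s averaged 19.2 ± 8.395 CPM (FC 4.91 ± 0.38, adjusted p = 1.45e-08). *Klra9* (Ly49I) had 427, 431, 457 and 581 CPM in AL 7R- ILC1s, against 679 and 605 CPM in AL NK cells (FC -0.44 ± 0.17, adjusted p = 0.0602). It was called as lower in the DESeq2 fit (adjusted p = 0.032), the fit with RLE scaling (adjusted p = 0.0477), the fit without a filter (adjusted p = 0.00595), the fit of the 2 groups alone (adjusted p = 0.0183) and the fit without AL 7R- ILC1 replicate 4 (adjusted p = 0.0201).

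These genes lie in a row on the minus strand of chromosome 6, from *Klra5* (chromosome 6 from 129898996 to 129917650) by way of *Klra6*, *Klra4*, *Klra8*, *Klra9*, *Klra7*, *Klra10* and *Klra3* to *Klra1* (chromosome 6 from 130363917 to 130386874). *Klra6* and *Klra10* were picked after their values were seen. In that order the mean levels per kilobase of exon in AL 7R- ILC1s were 392, 1.22, 2.85, 16.5, 371, 19.2, 7.38, 32.5 and 2.06 CPM per kb. In AL NK cells they were 11.3, 14.96, 724, 1122, 502, 554, 137, 198 and 48.4 CPM per kb. AL 7R- ILC1s were thus highest at *Klra5* and *Klra9*, while AL NK cells were low at *Klra5* and *Klra6*. The pseudogene *Klra13-ps* averaged 82.2 ± 28.6 CPM in AL 7R- ILC1s and 2912 ± 95.6 CPM in AL NK cells (FC -5.16 ± 0.42, adjusted p = 3.96e-09). DESeq2 gave no adjusted p for it. Reads of near-identical Ly49 genes and pseudogenes can be split or exchanged by the counting, so the level of a single member is uncertain. Between the 2 liver ILC1 subsets, AL 7R- ILC1s were higher than AL 7R+ ILC1s at *Klra8* (3.46), *Klra4* (3.43), *Klra7* (2.27) and *Klra9* (2.17) on the log2 scale, with adjusted p of 5.97e-05, 3.66e-04, 1.59e-04 and 8.06e-09.

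The start regions of *Klra5* and *Klra8* are shown because these near copies had opposite differences (RefSeq, GRCm38.p6, minus strand). The RefSeq start of *Klra5* lies inside the GENCODE span of the gene given above, and that of *Klra8* at the end of its span. Over an end-to-end alignment of the 2 windows, 70.8% of the columns were identical. Capitals mark the longest run of letters found in the windows of *Klra3*, *Klra4*, *Klra5*, *Klra8* and *Klra9*.
Klra5, chr6:129913175-129913474: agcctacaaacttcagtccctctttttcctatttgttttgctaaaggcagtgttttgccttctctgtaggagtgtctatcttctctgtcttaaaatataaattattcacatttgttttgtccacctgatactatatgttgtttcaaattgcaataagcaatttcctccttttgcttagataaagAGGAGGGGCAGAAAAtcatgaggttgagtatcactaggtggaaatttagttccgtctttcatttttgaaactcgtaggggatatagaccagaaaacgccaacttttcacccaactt
Klra8, chr6:130129849-130130148: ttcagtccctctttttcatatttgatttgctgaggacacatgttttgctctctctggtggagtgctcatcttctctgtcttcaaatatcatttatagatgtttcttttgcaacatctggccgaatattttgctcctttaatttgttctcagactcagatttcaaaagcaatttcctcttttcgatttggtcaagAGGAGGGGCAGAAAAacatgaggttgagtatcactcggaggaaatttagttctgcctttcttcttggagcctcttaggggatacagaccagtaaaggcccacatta
The run of 15 bases was in 9 of the 32851 windows (0.0274%), 8 of which belong to *Klra* genes: *Klra3*, *Klra4*, *Klra5*, *Klra6*, *Klra8*, *Klra9* and *Klra17*. The run was defined by the windows of *Klra3*, *Klra4*, *Klra5*, *Klra8* and *Klra9*, so its presence in them was fixed in advance. The window of *Klra5* with its higher level in AL 7R- ILC1s and that of *Klra8* with its lower level both held it by that definition.

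**Figure D3:**
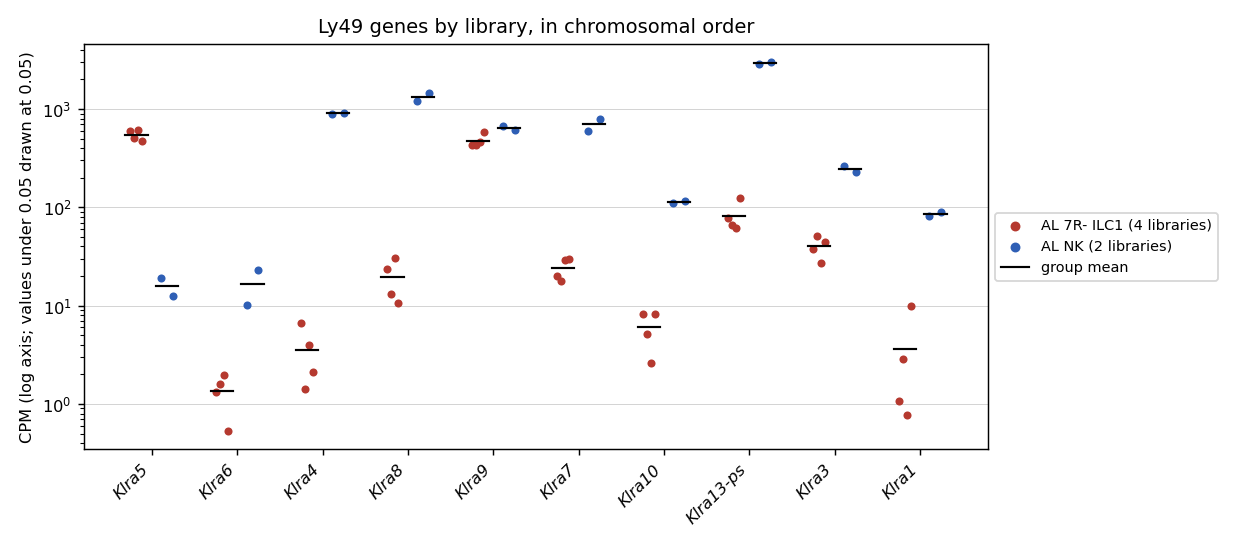
CPM of Ly49 genes (vertical axis, log scale) in the AL 7R- ILC1 libraries (red, left of each pair) and the AL NK libraries (blue, right), with group means as lines, in their order along the chromosome. *Klra5* is the gene at which red lies above blue.

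Lectin receptors of the NKG2 and NKR-P1 families had no common direction (7 higher and 7 lower of 18 tested, and 6 and 4 without AL NK replicate 2). *Klrg1*, an inhibitory receptor of mature NK cells, had 8.75, 7.34, 7.82 and 8.26 CPM in the AL 7R- ILC1 libraries, against 226 and 261 CPM in the AL NK libraries (FC -4.92 ± 0.25, adjusted p = 1.90e-12). *Klrc1*, encoding the inhibitory receptor NKG2A, averaged 1599 ± 119 CPM in AL 7R- ILC1s and 746 ± 140.1 CPM in AL NK cells (FC 1.10 ± 0.12, adjusted p = 2.56e-07). Its partner *Klrd1* (CD94) averaged 1817 ± 83.1 CPM in AL 7R- ILC1s and 1439.8 ± 78.8 CPM in AL NK cells, and its FC of 0.34 was not called without AL NK replicate 2 (adjusted p = 0.0515). *Klrc2* (NKG2C) at -0.44 and *Klrk1* (NKG2D) at -0.41 on the log2 scale were lower, with 1815 ± 64.2 CPM in AL 7R- ILC1s and 2409 ± 145 CPM in AL NK cells for *Klrk1*. *Klrb1b*, an inhibitory NKR-P1 receptor, was higher (FC 1.05), and so was its ligand gene *Clec2d* (FC 1.30). *Klri2*, a receptor chain that pairs with KLRE1, was lower (FC -1.18, 582 ± 55.7 CPM in AL 7R- ILC1s and 1315 ± 31.9 CPM in AL NK cells).

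Immunoglobulin-type receptors were more often higher (16 of 37 tested) than lower (10), with a median FC of 0.74, or 0.53 with genes at 0 in a group set at their bound. *Cd200r1*, an inhibitory receptor for CD200, had 215, 230.4, 231 and 285 CPM in the AL 7R- ILC1 libraries, against 0.76 and 1.27 CPM in the AL NK libraries (FC 7.90 ± 0.30, adjusted p = 1.76e-14). *Cd200r2* beside it on chromosome 16 had 333, 406, 367 and 397 CPM in AL 7R- ILC1s, against 1.33 and 0 CPM in AL NK cells (FC 8.91 ± 0.37, adjusted p = 6.18e-14). *Cd200r4*, which lies between them and was picked after its values were seen, differed less (FC 1.30, 226 ± 24.02 CPM in AL 7R- ILC1s and 91.5 ± 7.596 CPM in AL NK cells). *Cd7*, a receptor of T and NK cells, had 4802, 3883, 4289 and 3901 CPM in the AL 7R- ILC1 libraries, against 529.7 and 357 CPM in the AL NK libraries (FC 3.25 ± 0.13, adjusted p = 3.70e-14). It was at 2418 ± 156 CPM in AL 7R+ ILC1s. Receptors for nectins and related ligands followed. *Cd226* (DNAM-1, activating) averaged 264 ± 26.2 CPM in AL 7R- ILC1s and 62.2 ± 13.02 CPM in AL NK cells (FC 2.09). *Cd96* averaged 246 ± 19.8 CPM in AL 7R- ILC1s and 106 ± 4.68 CPM in AL NK cells (FC 1.21). *Tigit* (inhibitory) averaged 135 ± 7.94 CPM in AL 7R- ILC1s and 60.9 ± 11.7 CPM in AL NK cells (FC 1.16). *Tigit* also set AL 7R- ILC1s apart from AL 7R+ ILC1s (41.2 ± 6.92 CPM, FC 1.72). *Lag3*, a checkpoint receptor, averaged 65.1 ± 4.64 CPM in AL 7R- ILC1s and 2.41 ± 0.185 CPM in AL NK cells (FC 4.75 ± 0.33, adjusted p = 2.31e-10), and *Pdcd1* (PD-1) 21.7 CPM in AL 7R- ILC1s with 1 count in AL NK cells, a ratio of 208 (95% counting interval 37.1 to 8219). On the lower side, *Fcgr2b*, the inhibitory receptor for IgG, averaged 0.616 ± 0.311 CPM in AL 7R- ILC1s and 81.8 ± 11.4 CPM in AL NK cells (FC -7.11 ± 0.49, adjusted p = 2.07e-10). *Slamf6*, a homotypic receptor, averaged 0.609 ± 0.583 CPM in AL 7R- ILC1s and 28.8 ± 1.73 CPM in AL NK cells (FC -5.72 ± 0.54, adjusted p = 3.81e-08). *Lair1*, a collagen receptor, averaged 1.28 ± 0.972 CPM in AL 7R- ILC1s and 35.8 ± 6.85 CPM in AL NK cells (FC -4.67 ± 0.58, adjusted p = 2.20e-06). *Cd28*, a costimulatory receptor, averaged 3.15 ± 3.45 CPM in AL 7R- ILC1s and 85.9 ± 6.89 CPM in AL NK cells, against 92.4 ± 3.38 CPM in AL 7R+ ILC1s, so AL 7R- ILC1s were lower than both (adjusted p = 1.49e-08 and 3.57e-08).

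Chains of the CD3 complex and ITAM adaptors pass signals from activating receptors. Of 27 tested, 13 were higher and 6 lower. *Cd3g* had 2288, 1919, 2017 and 1772 CPM in the AL 7R- ILC1 libraries, against 6.08 and 4.32 CPM in the AL NK libraries (FC 8.55 ± 0.24, adjusted p = 1.46e-16). AL 7R+ ILC1s averaged 212 ± 35.1 CPM (FC 3.24 ± 0.14, adjusted p = 9.37e-13). *Cd3d*, whose start faces that of *Cd3g* on chromosome 9, averaged 42.5 ± 6.29 CPM in AL 7R- ILC1s and 3.202 ± 1.65 CPM in AL NK cells (FC 3.67 ± 0.41, adjusted p = 5.07e-07). Per kilobase of exon, the mean levels in AL 7R- ILC1s were 611 CPM per kb for *Cd3g*, 23.4 for *Cd3d* and 4.52 for *Cd3e*. In AL NK cells they were 1.59, 1.76 and 0 CPM per kb. *Cd3g* thus stood far above the other chains of its complex in AL 7R- ILC1s. The constant region genes *Trbc1* (FC 1.06) and *Trbc2* (FC 2.52) were higher, at 526 ± 55.5 CPM in AL 7R- ILC1s and 91.9 ± 8.45 CPM in AL NK cells for *Trbc2*. *Trdc* was lower (FC -1.66, 48.8 ± 6.99 CPM in AL 7R- ILC1s and 154 ± 19.8 CPM in AL NK cells). *Tcrg-C1* averaged 27.1 CPM in AL 7R- ILC1s with 3 counts in AL NK cells, a ratio of 81.4 (95% counting interval 27.7 to 396). *Ighm*, the constant region gene of IgM, was also higher (495 ± 40.3 CPM in AL 7R- ILC1s and 219 ± 13.2 CPM in AL NK cells, FC 1.17 ± 0.09, adjusted p = 2.32e-09). The other 10 B cell markers without *Ighd* summed to 11.7 to 14.7 CPM in AL 7R- ILC1s and 7.88 to 11.6 CPM in AL NK cells. The level of other T cell markers, given above, was also higher in AL 7R- ILC1s, and its part in these differences was not tested.

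Among the adaptors, *Fcer1g*, the Fc receptor gamma chain, averaged 1964 ± 145 CPM in AL 7R- ILC1s and 1490.3 ± 73.7 CPM in AL NK cells (FC 0.40 ± 0.08, adjusted p = 0.00104). *Cd247*, the zeta chain with the same role, was lower, at 94.5 ± 12.1 CPM in AL 7R- ILC1s and 216 ± 23.5 CPM in AL NK cells (FC -1.19 ± 0.13, adjusted p = 3.45e-07). The kinases downstream split as well: *Zap70* was higher (FC 1.17 ± 0.09, adjusted p = 6.27e-10) and *Syk* lower (FC -0.70 ± 0.15, adjusted p = 9.13e-04), as was *Fyn*, a kinase of the Src family (FC -1.76 ± 0.09, adjusted p = 2.58e-12). *Sh2d1a*, encoding the adaptor SAP of SLAM receptors, had 1.06, 0.358, 1.38 and 4.26 CPM in AL 7R- ILC1s, against 161 and 120.2 CPM in AL NK cells (FC -6.43 ± 0.35, adjusted p = 4.83e-12). *Plcg1*, a phospholipase of antigen receptor signals, was higher, at 42.6 ± 8.56 CPM in AL 7R- ILC1s and 2.64 ± 3.46 CPM in AL NK cells (FC 4.12 ± 0.55, adjusted p = 5.86e-06).

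Cytokine receptors were divided evenly, with 9 higher and 9 lower of 30 tested. Receptors for IL-18 were lower: *Il18r1* had 9.02, 9.14, 4.29 and 10.4 CPM in the AL 7R- ILC1 libraries, against 174 and 231 CPM in the AL NK libraries (FC -4.67 ± 0.24, adjusted p = 2.06e-12). *Il18rap*, encoding the accessory chain, had 117, 97.6, 104 and 97.5 CPM in the AL 7R- ILC1 libraries, against 836 and 871 CPM in the AL NK libraries (FC -3.04 ± 0.09, adjusted p = 6.29e-16). Both were also lower than in AL 7R+ ILC1s (113 ± 39.1 and 311 ± 25.3 CPM, adjusted p = 2.35e-10 and 8.17e-11). *Ifngr1*, a chain of the receptor for interferon gamma, had 619, 651, 628 and 602 CPM in the AL 7R- ILC1 libraries, against 2169 and 1759 CPM in the AL NK libraries (FC -1.65 ± 0.10, adjusted p = 1.79e-11). *Kit*, the receptor for stem cell factor, averaged 2.93 ± 3.39 CPM in AL 7R- ILC1s and 31.9 ± 23.6 CPM in AL NK cells (FC -3.56 ± 0.64, adjusted p = 2.11e-04). *Il21r* rose the most of this list, with 421, 481, 385 and 405 CPM in the AL 7R- ILC1 libraries, against 27.2 and 26.4 CPM in the AL NK libraries (FC 3.98 ± 0.14, adjusted p = 5.47e-15). *Il12rb1*, shared by the receptors for IL-12 and IL-23, averaged 185 ± 19.6 CPM in AL 7R- ILC1s and 49.5 ± 6.89 CPM in AL NK cells (FC 1.91). *Il4ra* averaged 245 ± 24.7 CPM in AL 7R- ILC1s and 73.99 ± 2.57 CPM in AL NK cells (FC 1.73). *Tgfbr1*, the type I receptor for TGF-beta, averaged 148 ± 43.2 CPM in AL 7R- ILC1s and 35.2 ± 7.35 CPM in AL NK cells (FC 2.08). *Tgfbr2* had an FC of 0.53, a call that was lost without AL NK replicate 2 (adjusted p = 0.121). *Il2rb*, the beta chain of the receptors for IL-2 and IL-15, averaged 3691 ± 161 CPM in AL 7R- ILC1s and 2909.7 ± 269.8 CPM in AL NK cells (FC 0.34). *Il12rb2* averaged 260.1 ± 29.1 CPM in AL 7R- ILC1s and 365 ± 32.9 CPM in AL NK cells (FC -0.49). Neither call held without AL NK replicate 2 (adjusted p = 0.0564 and 0.137). *Il2ra* did not pass (8.22 ± 2.75 CPM in AL 7R- ILC1s and 4.696 ± 1.27 CPM in AL NK cells, adjusted p = 0.134).

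Feedback genes of cytokine signals moved apart. Of 21 tested genes of JAK kinases, SOCS proteins and feedback phosphatases, 7 were higher and 4 lower, and 7 were lower with DESeq2, with thinned libraries or without AL 7R- ILC1 replicate 2. *Cish* and *Socs2*, both induced by STAT5, were higher: *Cish* (ENSMUSG00000032578, chromosome 9 from 107296026 to 107302784) had 184, 205, 210.2 and 164 CPM in the AL 7R- ILC1 libraries, against 22.8 and 21.6 CPM in the AL NK libraries (FC 3.10 ± 0.18, adjusted p = 1.79e-11). *Socs2* had 221, 198, 232 and 213 CPM in the AL 7R- ILC1 libraries, against 17.7 and 22.9 CPM in the AL NK libraries (FC 3.43 ± 0.16, adjusted p = 6.58e-13). *Socs1* averaged 206 ± 5.99 CPM in AL 7R- ILC1s and 106 ± 20.4 CPM in AL NK cells (FC 0.96). *Dusp6*, a phosphatase of ERK, averaged 336 ± 14.97 CPM in AL 7R- ILC1s and 43.4 ± 0.0988 CPM in AL NK cells (FC 2.95). In contrast, *Socs3*, which is induced by STAT3, was lower (8.88 ± 4.44 CPM in AL 7R- ILC1s and 28.1 ± 8.41 CPM in AL NK cells, FC -1.66 ± 0.34, adjusted p = 7.20e-04). The kinases *Jak1* (FC -1.11 ± 0.09, adjusted p = 2.46e-09) and *Tyk2* (FC -1.27 ± 0.15, adjusted p = 6.56e-07) were lower, as was *Dusp5* (FC -1.22). The start region of *Cish* is shown because *Cish* is the textbook target of STAT5 and was higher in AL 7R- ILC1s (RefSeq, GRCm38.p6, plus strand). Its RefSeq start, too, lies inside the GENCODE span. Capitals mark TTCNNNGAA, the palindrome that STAT factors bind.
Cish, chr9:107296409-107296708: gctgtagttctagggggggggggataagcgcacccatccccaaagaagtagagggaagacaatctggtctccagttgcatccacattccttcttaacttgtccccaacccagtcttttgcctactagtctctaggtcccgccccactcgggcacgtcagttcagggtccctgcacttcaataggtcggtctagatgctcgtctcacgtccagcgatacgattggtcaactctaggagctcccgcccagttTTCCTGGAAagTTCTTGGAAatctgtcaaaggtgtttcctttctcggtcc
The window held 2 matches, at bases 251 and 262, where the annotated transcript begins, and 8.30% of the 32851 windows held at least 1. Among windows of the genes higher in AL 7R- ILC1s the share was 7.59%, among those of the genes lower 7.43%, and among those of all tested genes 6.97%.

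Transcription factors of the 2 lineages were more often lower (25 of 60 tested) than higher (16). *Eomes*, which drives NK cell maturation, had 4.77, 1.79, 4.601 and 3.73 CPM in the AL 7R- ILC1 libraries, against 502 and 495 CPM in the AL NK libraries (FC -7.08 ± 0.34, adjusted p = 5.15e-13). *Tbx21*, encoding T-bet, was present in both and lower in AL 7R- ILC1s, with 678, 799, 692 and 633 CPM in the AL 7R- ILC1 libraries, against 1010.0 and 1067 CPM in the AL NK libraries (FC -0.57 ± 0.09, adjusted p = 3.21e-05). *Klf2*, which controls exit from tissue, had 2.92, 2.15, 5.06 and 2.66 CPM in the AL 7R- ILC1 libraries, against 632 and 594 CPM in the AL NK libraries (FC -7.51 ± 0.22, adjusted p = 2.16e-16). *Zeb2*, a factor of terminal NK cell maturation, had 1.33, 2.87, 0.46 and 2.66 CPM in the AL 7R- ILC1 libraries, against 255 and 289 CPM in the AL NK libraries (FC -7.26 ± 0.36, adjusted p = 1.08e-12). AL 7R+ ILC1s averaged 39.99 ± 4.22 CPM of *Klf2* and 7.03 ± 2.28 CPM of *Zeb2*, above AL 7R- ILC1s in both (adjusted p = 6.32e-10 and 0.00583). *Tcf7*, encoding TCF-1, averaged 9.52 ± 2.08 CPM in AL 7R- ILC1s and 149.9 ± 50.6 CPM in AL NK cells (FC -3.96 ± 0.22, adjusted p = 4.87e-12). *Irf8* averaged 173 ± 23.3 CPM in AL 7R- ILC1s and 1371 ± 296 CPM in AL NK cells (FC -2.99 ± 0.12, adjusted p = 6.95e-14). *Myb*, a factor of progenitors and cycling cells, averaged 0.21 ± 0.259 CPM in AL 7R- ILC1s and 29.9 ± 3.12 CPM in AL NK cells (FC -7.03 ± 0.63, adjusted p = 1.61e-08). *Prdm1*, encoding Blimp-1, was also lower (50.7 ± 4.91 CPM in AL 7R- ILC1s and 103 ± 25.6 CPM in AL NK cells, FC -1.02 ± 0.17, adjusted p = 9.78e-05).

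Factors that were higher in AL 7R- ILC1s included *Zfp683*, encoding Hobit, with 220.4, 195, 189.8 and 192 CPM in the AL 7R- ILC1 libraries, against 0.95 and 1.52 CPM in the AL NK libraries (FC 7.35 ± 0.26, adjusted p = 5.78e-15). *Bcl11b*, a factor of T cell and ILC2 commitment, averaged 111 ± 13.6 CPM in AL 7R- ILC1s and 7.098 ± 6.08 CPM in AL NK cells (FC 3.89 ± 0.32, adjusted p = 3.35e-09). *Ahr*, the aryl hydrocarbon receptor, averaged 81.7 ± 12.2 CPM in AL 7R- ILC1s and 10.8 ± 0.244 CPM in AL NK cells (FC 2.91 ± 0.23, adjusted p = 2.19e-09). *Hic1*, a transcriptional repressor, averaged 64.8 ± 7.92 CPM in AL 7R- ILC1s and 5.17 ± 0.595 CPM in AL NK cells (FC 3.65 ± 0.43, adjusted p = 1.10e-06). *Id2*, the inhibitor of E proteins that all innate lymphoid cells use, had 4763, 4761, 4392 and 4209.9 CPM in the AL 7R- ILC1 libraries, against 2949.9 and 2584 CPM in the AL NK libraries (FC 0.71 ± 0.07, adjusted p = 6.30e-08). Orphan receptors of the NR4A family, which antigen receptor and stress signals induce, were lower, and the calls of *Nr4a1* and *Nr4a3* were lost without AL NK replicate 2. *Nr4a1* averaged 9.25 ± 15.7 CPM in AL 7R- ILC1s and 94.5 ± 70.8 CPM in AL NK cells. *Nr4a2* averaged 5.69 ± 2.18 CPM in AL 7R- ILC1s and 37.5 ± 23.2 CPM in AL NK cells. *Nr4a3* averaged 11.5 ± 3.002 CPM in AL 7R- ILC1s and 31.8 ± 3.26 CPM in AL NK cells. Without AL NK replicate 2 the adjusted p was 0.0671 for *Nr4a1*, 0.0166 for *Nr4a2* and 0.0689 for *Nr4a3*.

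Genes of exit and homing were called in both directions (9 higher and 12 lower of 31 tested). Beside *S1pr1*, *S1pr5*, the S1P receptor of mature NK cells, had 10.6, 8.24, 8.89 and 17.1 CPM in the AL 7R- ILC1 libraries, against 770.5 and 778 CPM in the AL NK libraries (FC -6.16 ± 0.24, adjusted p = 3.70e-14). *Cx3cr1*, a fractalkine receptor of mature NK cells, had 0, 0.358, 0.307 and 0 CPM in AL 7R- ILC1s, against 30.8 and 88.4 CPM in AL NK cells (FC -8.05 ± 0.91, adjusted p = 5.29e-07). On the higher side, *Cxcr3*, the receptor for interferon-induced chemokines, had 568, 571, 587 and 487 CPM in the AL 7R- ILC1 libraries, against 116 and 69.4 CPM in the AL NK libraries (FC 2.57 ± 0.15, adjusted p = 1.98e-11). *Rgs1*, which dampens chemokine receptor signals, averaged 474 ± 16.1 CPM in AL 7R- ILC1s and 62.2 ± 3.13 CPM in AL NK cells (FC 2.93 ± 0.13, adjusted p = 1.61e-13). Libraries of the 2 groups did not overlap in any of these genes.

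**Figure D4:**
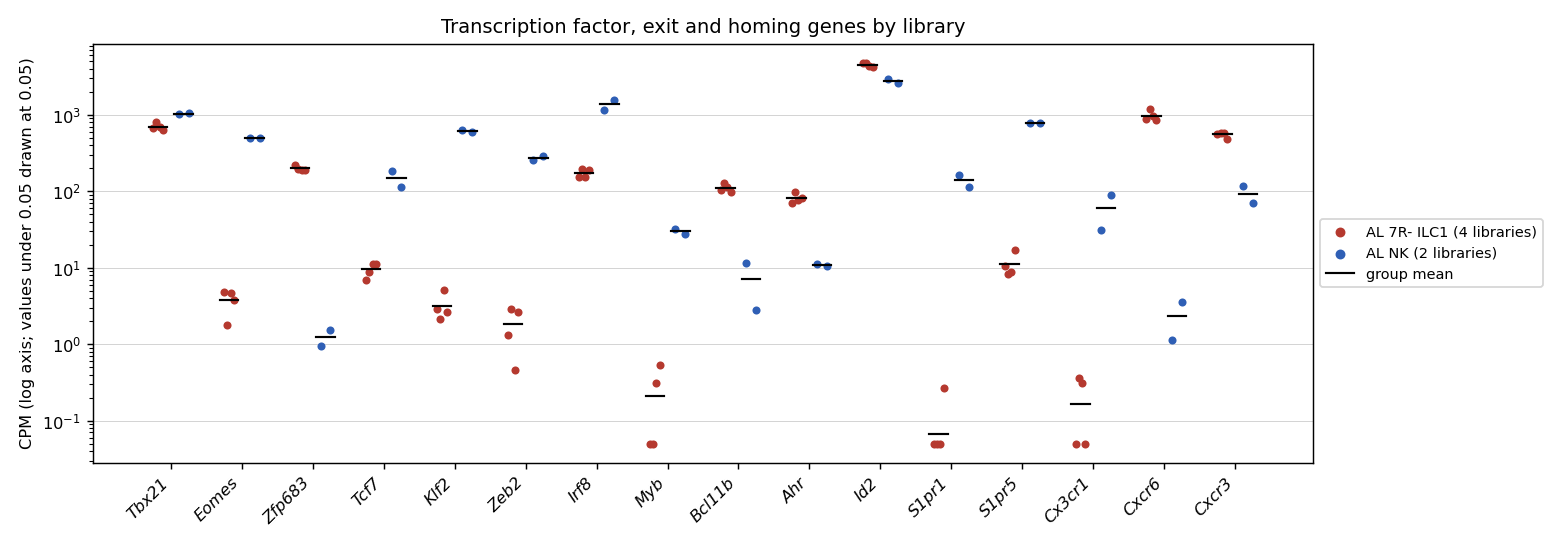
CPM of transcription factor, exit and homing genes (vertical axis, log scale) in the AL 7R- ILC1 libraries (red, left of each pair) and the AL NK libraries (blue, right), with group means as lines. *Zfp683*, *Bcl11b*, *Ahr*, *Id2*, *Cxcr6* and *Cxcr3* lie higher in red, and the other 10 genes lower.

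Integrin chains were called in both directions (8 higher and 11 lower of 23 tested, with CD49a and CD49b fixed by the gate). *Itga4*, which with a beta chain binds VCAM-1, had 95.2, 111, 118 and 103 CPM in the AL 7R- ILC1 libraries, against 607 and 834 CPM in the AL NK libraries (FC -2.75 ± 0.11, adjusted p = 4.17e-14). *Itgam* (CD11b), a maturation marker of NK cells, averaged 71.3 ± 7.95 CPM in AL 7R- ILC1s and 405 ± 30.3 CPM in AL NK cells (FC -2.50 ± 0.17, adjusted p = 1.46e-10). *Itga5*, of the fibronectin receptor, averaged 15.7 ± 4.44 CPM in AL 7R- ILC1s and 75.9 ± 18.2 CPM in AL NK cells (FC -2.28 ± 0.26, adjusted p = 6.31e-07). *Itgax* (CD11c) was higher, with 608, 519, 632 and 581 CPM in the AL 7R- ILC1 libraries, against 236 and 234 CPM in the AL NK libraries (FC 1.31 ± 0.18, adjusted p = 6.91e-06), as were *Itgad* (FC 1.96) and *Itgav* (FC 1.29). *Itgae* (CD103), an integrin of epithelial lymphocytes, did not pass (5.37 ± 3.36 CPM in AL 7R- ILC1s and 11.7 ± 1.14 CPM in AL NK cells, adjusted p = 0.122). *Cd63*, a tetraspanin listed with them, averaged 59.5 CPM in AL 7R- ILC1s with 1 count in AL NK cells, a ratio of 548 (95% counting interval 98.2 to 21676).

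Of 27 tested genes of NK cell and circulating lymphocyte maturation, 22 were lower and 1 higher, with a median FC of -2.64. All gene lists, this one and that of liver ILC1 markers among them, were written with earlier results of these data known. The list counts are therefore no independent evidence of direction. Among members not yet named, *Ly6c2*, a surface marker of late NK cells, had 6.37, 4.66, 3.53 and 10.4 CPM in AL 7R- ILC1s, against 224 and 279 CPM in AL NK cells (FC -5.42 ± 0.31, adjusted p = 1.39e-11). *Lgals1*, encoding galectin-1, averaged 542 ± 72.6 CPM in AL 7R- ILC1s and 1048 ± 52.5 CPM in AL NK cells (FC -0.95 ± 0.11, adjusted p = 6.36e-07). The gene that was higher was *Osbpl3*, an oxysterol-binding protein gene (601 ± 25.4 CPM in AL 7R- ILC1s and 418 ± 10.4 CPM in AL NK cells, FC 0.53 ± 0.11, adjusted p = 7.78e-04).

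Of 33 tested markers of liver ILC1s, 23 were higher and 5 lower, with a median of 2.56. *Ckb*, a creatine kinase, had 203, 244, 216 and 232 CPM in the AL 7R- ILC1 libraries, against 0.95 and 1.52 CPM in the AL NK libraries (FC 7.52 ± 0.30, adjusted p = 3.70e-14). *Inpp4b*, a phosphoinositide phosphatase, averaged 178 ± 22.04 CPM in AL 7R- ILC1s and 4.89 ± 2.07 CPM in AL NK cells (FC 5.23 ± 0.27, adjusted p = 2.79e-12). *Ly6e* averaged 1855 ± 24.2 CPM in AL 7R- ILC1s and 726 ± 30.4 CPM in AL NK cells (FC 1.35 ± 0.07, adjusted p = 1.00e-12). The membrane protein pair *Tmem176a* and *Tmem176b* was higher than in AL NK cells (55.4 ± 15.2 CPM in AL 7R- ILC1s and 6.76 ± 1.23 CPM in AL NK cells for *Tmem176b*, FC 3.05, and 2.61 for *Tmem176a*). Both were far lower than in AL 7R+ ILC1s, which had 408 ± 60.7 CPM for *Tmem176b* and 203 ± 13.7 CPM for *Tmem176a* (FC -2.88 and -3.71). Some of the markers were lower than in AL NK cells. *Sdc4*, a heparan sulfate proteoglycan, averaged 3.32 ± 1.52 CPM in AL 7R- ILC1s and 35.4 ± 2.01 CPM in AL NK cells (FC -3.47 ± 0.38, adjusted p = 4.10e-07). *Kcnq5*, a potassium channel, averaged 6.08 ± 1.99 CPM in AL 7R- ILC1s and 25.7 ± 7.66 CPM in AL NK cells (FC -2.09 ± 0.35, adjusted p = 1.09e-04). The protease inhibitor genes *Ctla2a* and *Ctla2b* are near copies. *Ctla2a* averaged 41.96 ± 6.02 CPM in AL 7R- ILC1s and 235 ± 62.9 CPM in AL NK cells, with FC -2.49. *Ctla2b* averaged 45.3 ± 4.16 CPM in AL 7R- ILC1s and 125 ± 26.6 CPM in AL NK cells, with FC -1.47.

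Genes that sense or convert extracellular ATP were higher in 7 of 12 cases and lower in 2, or in 7 and 1 without AL NK replicate 2. *P2rx7*, an ion channel opened by ATP, had 54.1, 72.2, 33.6 and 49.3 CPM in the AL 7R- ILC1 libraries, against 0.57 and 0.762 CPM in the AL NK libraries (FC 6.27 ± 0.50, adjusted p = 2.50e-09). *P2rx4* averaged 20.5 ± 6.96 CPM in AL 7R- ILC1s and 4.38 ± 0.279 CPM in AL NK cells (FC 2.23 ± 0.44, adjusted p = 6.19e-04). *Art2b*, an ecto-enzyme that modifies P2RX7 with NAD, had 81.7, 90.8, 65.02 and 69.8 CPM in AL 7R- ILC1s, against 0.76 and 0 CPM in AL NK cells (FC 7.40 ± 0.76, adjusted p = 1.31e-07). *Cd38*, which consumes NAD, averaged 336 ± 53.1 CPM in AL 7R- ILC1s and 61.3 ± 6.06 CPM in AL NK cells (FC 2.46 ± 0.18, adjusted p = 6.60e-10). Along the route to adenosine, *Nt5e* (CD73) averaged 46.5 ± 8.94 CPM in AL 7R- ILC1s and 17.5 ± 0.0399 CPM in AL NK cells (FC 1.41 ± 0.23, adjusted p = 6.45e-05). *Entpd1* (CD39) averaged 176 ± 15.1 CPM in AL 7R- ILC1s and 77.7 ± 22.3 CPM in AL NK cells (FC 1.19) but was not called without AL NK replicate 1 (adjusted p = 0.122). *Adora2a*, the adenosine receptor, had an FC of -0.49, and was likewise not called without that library (adjusted p = 0.137).

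The mTOR kinase joins growth signals to nutrient supply. Of 46 tested genes of mTOR, PI3K and nutrient sensing, 8 were higher and 5 lower, which is 17.4% and 10.9% against 11.9% and 11.8% of all genes, and the median was -0.05. Without AL NK replicate 2 the counts were 7 and 3. *Mtor* averaged 39.9 ± 6.64 CPM in AL 7R- ILC1s and 25.9 ± 1.76 CPM in AL NK cells (FC 0.62, adjusted p = 0.0482). It was not called without AL NK replicate 1 or 2 (adjusted p = 0.327 and 0.136) or without AL 7R- ILC1 replicates 1, 2 or 4 (adjusted p = 0.0686, 0.0567 and 0.116). Nor was it called in the fit with RLE scaling (adjusted p = 0.0563), the fit without a filter (adjusted p = 0.0899), the fit of the 2 groups alone (adjusted p = 0.0743), the fit of all 8 groups (adjusted p = 0.0717) and the fit with a replicate block (adjusted p = 0.059). *Rptor* (56.7 ± 10.97 CPM in AL 7R- ILC1s and 69.3 ± 3.83 CPM in AL NK cells) and *Ddit4*, an inhibitor of mTORC1 (32.01 ± 3.57 CPM in AL 7R- ILC1s and 38.4 ± 8.296 CPM in AL NK cells), did not pass. *Lamtor4*, of the Ragulator complex, averaged 81.5 ± 11.3 CPM in AL 7R- ILC1s and 40.9 ± 1.75 CPM in AL NK cells (FC 0.99 ± 0.15, adjusted p = 3.38e-05). *Sesn3*, a leucine sensor family member, averaged 39.3 ± 6.99 CPM in AL 7R- ILC1s and 13.6 ± 1.99 CPM in AL NK cells (FC 1.53 ± 0.31, adjusted p = 8.77e-04). *Fnip1* averaged 52.6 ± 4.204 CPM in AL 7R- ILC1s and 28.4 ± 1.42 CPM in AL NK cells (FC 0.89 ± 0.17, adjusted p = 3.22e-04). *Pik3r5*, a regulatory subunit of PI3K gamma, was lower, with 107, 111, 87.1 and 95.9 CPM in the AL 7R- ILC1 libraries, against 403 and 336 CPM in the AL NK libraries (FC -1.89 ± 0.14, adjusted p = 5.86e-10), as were *Pik3cb* (FC -1.02) and *Akt2* (FC -0.76).

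Nutrient transporters were higher in 3 and lower in 4 of 16 cases, but in 0 and 5 without AL NK replicate 1 and in 2 and 2 without AL NK replicate 2. *Slc7a5*, the large neutral amino acid transporter, was lower (3.16 ± 2.59 CPM in AL 7R- ILC1s and 13.8 ± 0.211 CPM in AL NK cells, FC -2.16 ± 0.46, adjusted p = 0.00125). So was *Slc16a1*, a lactate transporter (2.23 ± 2.24 CPM in AL 7R- ILC1s and 24.8 ± 3.69 CPM in AL NK cells, FC -3.40 ± 0.71, adjusted p = 0.00105). *Slc3a2* (153 ± 8.44 CPM in AL 7R- ILC1s and 155 ± 11.9 CPM in AL NK cells) and *Tfrc*, the transferrin receptor (6.59 ± 1.87 CPM in AL 7R- ILC1s and 9.68 ± 6.44 CPM in AL NK cells), did not pass. *Slc2a1*, a glucose transporter, had an FC of -0.69, a call lost without AL NK replicate 2 (adjusted p = 0.0942). Glycolytic genes were higher in 4 and lower in 6 of 19 cases, or in 2 and 5 without AL NK replicate 1. *Aldoa* was higher (632 ± 46.6 CPM in AL 7R- ILC1s and 341 ± 12.1 CPM in AL NK cells, FC 0.89 ± 0.08, adjusted p = 2.63e-08). So was *Pdk1*, a kinase that inhibits pyruvate dehydrogenase (53.4 ± 11.3 CPM in AL 7R- ILC1s and 14.4 ± 4.59 CPM in AL NK cells, FC 1.87 ± 0.23, adjusted p = 2.16e-06). *Pfkp* (144 ± 16.1 CPM in AL 7R- ILC1s and 556 ± 41.2 CPM in AL NK cells, FC -1.95 ± 0.11, adjusted p = 1.76e-11), *Eno1* (FC -0.65), *Tpi1* (FC -0.61) and *Pgam1* (FC -0.72) were lower. *Ldha* had an FC of -0.41 and not called without AL NK replicate 2 (adjusted p = 0.294), and *Hk2* did not pass (0.564 ± 0.509 CPM in AL 7R- ILC1s and 2.13 ± 0.588 CPM in AL NK cells). Oxidative phosphorylation genes were higher in 9 and lower in 3 of 74, which is 12.2% and 4.1% against 11.9% and 11.8% of all genes, but in 1 and 2 without AL NK replicate 1 and in 2 and 1 without AL NK replicate 2. Cytosolic ribosomal proteins were higher and lower in 1 and 5 of 75, which is 1.3% and 6.7% and below the shares of all genes. Both counts were smaller without AL NK replicate 2. *Ndufa5*, of complex I, was higher (FC 0.92) and *Ndufa4* lower (FC -0.62). In sterol and fatty acid synthesis, 5 were higher and 3 lower of 21, which is 23.8% and 14.3% against 11.9% and 11.8% of all genes. Both counts were smaller without AL NK replicate 1. *Srebf2*, the regulator of cholesterol synthesis, averaged 172 ± 26.4 CPM in AL 7R- ILC1s and 74.8 ± 12.8 CPM in AL NK cells (FC 1.21 ± 0.15, adjusted p = 1.98e-06). *Lss* averaged 54.7 ± 9.33 CPM in AL 7R- ILC1s and 21.8 ± 3.09 CPM in AL NK cells (FC 1.33 ± 0.23, adjusted p = 1.61e-04). *Scd2*, a desaturase, averaged 46.8 ± 7.92 CPM in AL 7R- ILC1s and 111 ± 13.3 CPM in AL NK cells (FC -1.23 ± 0.14, adjusted p = 7.61e-07).

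Of 35 tested cell division genes, 15 were lower and 0 higher with edgeR (0 higher at an unadjusted p under 0.05 and 0 with DESeq2), with a median FC of -1.45, and the list summed to 1119 to 1349 CPM in AL 7R- ILC1s and 2068 to 2149 CPM in AL NK cells. Without AL NK replicate 1, 8 were lower, and without a filter on low counts 29. *Stmn1*, a microtubule regulator, had 23.9, 3.22, 23.00 and 7.99 CPM in the AL 7R- ILC1 libraries, against 108 and 95.6 CPM in the AL NK libraries (FC -2.80 ± 0.53, adjusted p = 3.87e-04). *Rrm2*, a subunit of ribonucleotide reductase, averaged 7.91 ± 5.03 CPM in AL 7R- ILC1s and 49.4 ± 9.89 CPM in AL NK cells (FC -2.59 ± 0.52, adjusted p = 7.39e-04). *Aurkb*, a mitotic kinase, averaged 2.67 ± 3.12 CPM in AL 7R- ILC1s and 21.4 ± 3.32 CPM in AL NK cells (FC -3.01 ± 0.61, adjusted p = 7.86e-04). *Mki67*, encoding Ki-67, had 11.9, 1.07, 19.8 and 6.66 CPM in AL 7R- ILC1s, against 26.6 and 47.5 CPM in AL NK cells (FC -1.84 ± 0.55, adjusted p = 0.0175). It was not called without AL NK replicate 2 (adjusted p = 0.215) or with a replicate block (adjusted p = 0.0508). Within AL 7R- ILC1s, replicates 1 and 3 were higher in these 4 genes than replicates 2 and 4, and all were below both AL NK libraries.

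Of 23 tested genes of the BCL2 family, which governs survival, 6 were higher and 3 lower, which is 26.1% and 13% against 11.9% and 11.8% of all genes. *Bcl2*, which IL-15 sustains, had 1487, 1663, 1648 and 1493 CPM in the AL 7R- ILC1 libraries, against 937 and 988 CPM in the AL NK libraries (FC 0.71 ± 0.08, adjusted p = 3.24e-07). *Bcl2l11* (BIM), which opposes it, was also higher (241 ± 14.7 CPM in AL 7R- ILC1s and 158 ± 2.69 CPM in AL NK cells, FC 0.60 ± 0.10, adjusted p = 1.18e-04). *Mcl1* (153 ± 11.6 CPM in AL 7R- ILC1s and 286 ± 22.7 CPM in AL NK cells, FC -0.90 ± 0.18, adjusted p = 5.29e-04) and *Bbc3* (PUMA, 23.9 ± 4.795 CPM in AL 7R- ILC1s and 64.8 ± 3.56 CPM in AL NK cells, FC -1.42 ± 0.17, adjusted p = 1.66e-06) were lower.

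Interferon-stimulated genes were higher in 15 and lower in 4 of 43 cases, with a median FC of 0.43, but in 8 and 3 without AL NK replicate 1. *Igtp*, a GTPase of cell-autonomous immunity, averaged 218 ± 23.1 CPM in AL 7R- ILC1s and 87.9 ± 24.4 CPM in AL NK cells (FC 1.32 ± 0.16, adjusted p = 1.42e-06). *Rtp4* averaged 113 ± 8.18 CPM in AL 7R- ILC1s and 45.8 ± 0.793 CPM in AL NK cells (FC 1.30 ± 0.28, adjusted p = 0.00123). *Gbp3*, another GTPase, was lower (16.9 ± 8.58 CPM in AL 7R- ILC1s and 56.3 ± 1.26 CPM in AL NK cells, FC -1.72 ± 0.29, adjusted p = 9.53e-05). *Usp18*, which restrains interferon signals, had an FC of -1.25 and not called without AL NK replicate 2 (adjusted p = 0.0948).

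Immediate early genes and heat shock genes, which respond to stress and to handling of cells, were called lower more often than higher. Of 33 tested immediate early and AP-1 genes, 14 were lower and 4 higher, and without AL NK replicate 2 the lower ones numbered 9. *Fos* had 0.796, 0.358, 0.153 and 0.266 CPM in AL 7R- ILC1s, against 4.56 and 12.7 CPM in AL NK cells (FC -4.46 ± 0.95, adjusted p = 0.00127). *Egr1* had 36.6, 24.9, 16.9 and 19.2 CPM in AL 7R- ILC1s, against 32.1 and 127 CPM in AL NK cells, so the groups overlapped and AL NK replicate 2 stood apart (FC -1.71, and -0.41 with adjusted p = 0.728 without AL NK replicate 2). *Jun* went the other way, with 131, 139, 121 and 100.2 CPM in the AL 7R- ILC1 libraries, against 17.5 and 28.2 CPM in the AL NK libraries (FC 2.44 ± 0.25, adjusted p = 1.08e-07). AL 7R+ ILC1s averaged 33.2 ± 3.48 CPM. *Zfp36l1*, which promotes decay of short-lived mRNAs, was higher as well (82.1 ± 2.78 CPM in AL 7R- ILC1s and 47.6 ± 1.27 CPM in AL NK cells, FC 0.79 ± 0.14, adjusted p = 1.76e-04). Of 15 heat shock genes, 9 were lower and 0 higher with edgeR (0 higher at an unadjusted p under 0.05 and 0 with DESeq2), and without AL NK replicate 2 the lower ones numbered 3. *Dnajb4* averaged 25.2 ± 6.399 CPM in AL 7R- ILC1s and 71.6 ± 0.163 CPM in AL NK cells (FC -1.52 ± 0.28, adjusted p = 3.44e-04). *Hspd1*, a mitochondrial chaperone, averaged 219.8 ± 32.5 CPM in AL 7R- ILC1s and 352 ± 25.8 CPM in AL NK cells (FC -0.68 ± 0.13, adjusted p = 4.76e-04). The heat shock list summed to 5875 to 7300 CPM in AL 7R- ILC1s and 7602 to 8217 CPM in AL NK cells. Whether these differences came with the cell type or with handling was not tested, nor was their part in other differences.

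Calcium-binding and lipid-binding proteins that mark lymphocyte subsets were split (5 higher and 7 lower of 19). *S100a6* had 585, 402, 552 and 436 CPM in the AL 7R- ILC1 libraries, against 104 and 129 CPM in the AL NK libraries (FC 2.09 ± 0.16, adjusted p = 1.46e-09). *S100a4* was low, at 8.92 CPM in AL 7R- ILC1s with 3 counts in AL NK cells, a ratio of 27.7 (95% counting interval 9.31 to 135). The annexin gene *Anxa1* was lower (85.7 ± 17.8 CPM in AL 7R- ILC1s and 471 ± 65.3 CPM in AL NK cells, FC -2.45 ± 0.15, adjusted p = 2.49e-11). *Anxa2* was lower as well (611 ± 39.1 CPM in AL 7R- ILC1s and 1460.1 ± 20.2 CPM in AL NK cells, FC -1.26 ± 0.08, adjusted p = 2.50e-11). *Vim*, encoding vimentin, averaged 327 ± 37.4 CPM in AL 7R- ILC1s and 676 ± 32.3 CPM in AL NK cells (FC -1.05 ± 0.12, adjusted p = 9.62e-07). *Lgals3*, encoding galectin-3, was higher (62.3 ± 13.1 CPM in AL 7R- ILC1s and 20.02 ± 2.24 CPM in AL NK cells, FC 1.65 ± 0.23, adjusted p = 8.32e-06), as was *S100a11* (FC 0.88). So was *Lgals8* (154 ± 6.34 CPM in AL 7R- ILC1s and 98.7 ± 7.36 CPM in AL NK cells, FC 0.64 ± 0.13, adjusted p = 9.55e-04). *Capg*, an actin-capping protein gene, was lower than in both AL NK cells and AL 7R+ ILC1s (6.702 ± 2.15 CPM in AL 7R- ILC1s and 40.3 ± 4.08 CPM in AL NK cells, and 50.8 ± 11.7 CPM in AL 7R+ ILC1s, adjusted p = 4.88e-08 and 1.27e-08). In TGF-beta signaling, 5 of 23 genes were higher (21.7%, against 11.9% of all genes) and 6 lower (26.1%, against 11.8%). Both counts were smaller without AL NK replicate 2. The mediator *Smad2* was lower (64.5 ± 10.9 CPM in AL 7R- ILC1s and 101 ± 8.202 CPM in AL NK cells, FC -0.65 ± 0.14, adjusted p = 0.00109). *Smad3* was lower too (133 ± 14.01 CPM in AL 7R- ILC1s and 252 ± 35.8 CPM in AL NK cells, FC -0.92 ± 0.14, adjusted p = 1.91e-05), where the receptor gene *Tgfbr1* was higher. *Tgif1*, a corepressor, averaged 12.3 ± 2.31 CPM in AL 7R- ILC1s and 45.8 ± 1.36 CPM in AL NK cells (FC -1.90 ± 0.24, adjusted p = 2.32e-06).

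**Figure D5:**
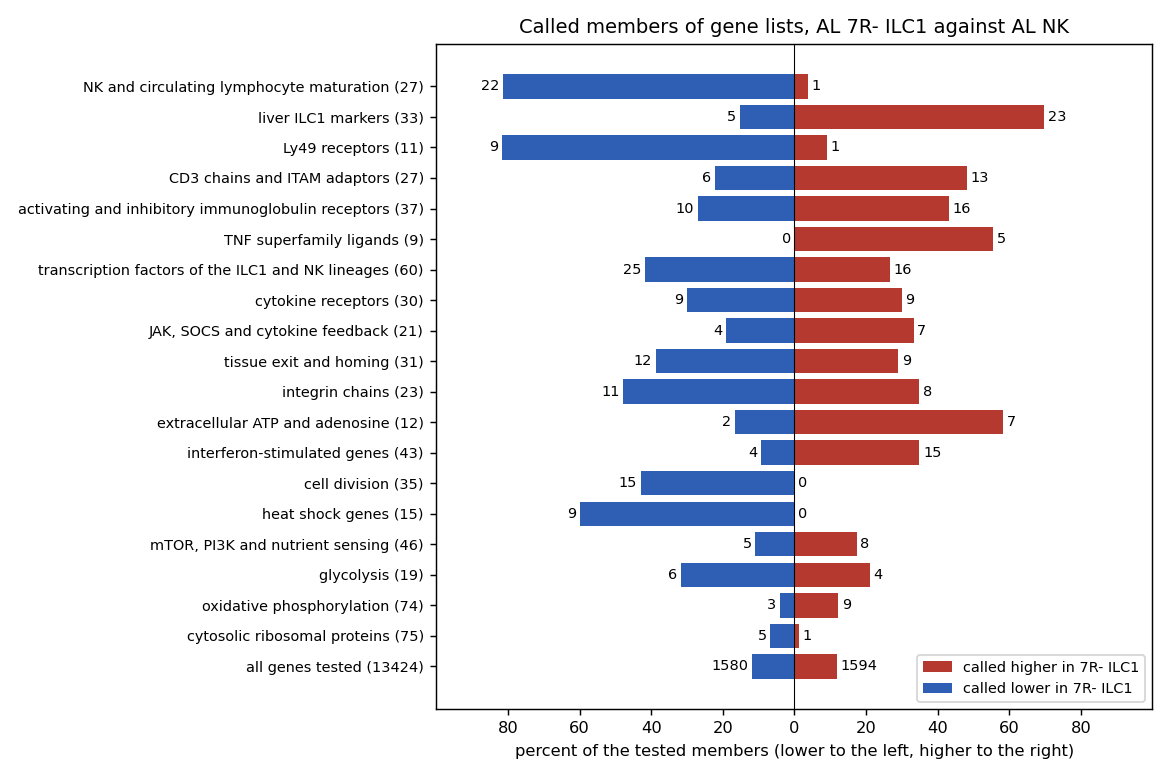
Percent of the tested members of each gene list (number tested in brackets) that were called higher (red, to the right) or lower (blue, to the left) in AL 7R- ILC1s than in AL NK cells, with the number of genes at each bar and all 13424 tested genes in the last row. NK maturation, Ly49, cell division and heat shock genes lean to the left, liver ILC1 markers and TNF superfamily ligands to the right.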

How the data were processed

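RNA-seq read counts per gene were deposited by the authors as 1 table of 46078 genes and 25 libraries. Per the study's methods and processing notes, reads were trimmed with fastp 0.23.0, aligned to mm10 with HISAT2 2.1.0 and counted with featureCounts of Subread 1.6.5. The annotation release, strand setting and handling of multi-mapped reads are not given in the sources used here. Gene names and positions came from GENCODE vM21 (GRCm38). Identifiers without a match (849) held 0.104% of the counts. Promoter windows and their coordinates are those of RefSeq (GRCm38.p6).

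Counts were fitted with edgeR 4.0.16 (R 4.3.3), using TMM scaling, filterByExpr with a minimum count of 10, and the quasi-likelihood test over 18 libraries of 6 groups, with p-values adjusted by Benjamini-Hochberg over 13424 genes and called under 0.05. A pair of fetal liver libraries that differed by little more than counting noise (chi-square per degree of freedom 1.17) was summed and counted as 1. Groups came from the sample labels. CPM are scaled by TMM. A group without counts was read as 3 counts over its libraries, and 95% intervals of count ratios cover counting error only. Scripts were tested on simulated data.

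Named genes were the 12 per direction with the largest fold change (average log2 CPM of at least 5, groups not overlapping), preset genes of each list, up to 4 called members per list and direction with a group mean of at least 20 CPM, and the 5 per direction with the largest CPM difference. List members that lost their call when a library was left out are given mostly within the counts. A gene that the rule selects is not reported here. A further 33 genes were picked with their values already in view. The comparison and the lists were chosen with earlier results of these data known. Alternatives were DESeq2 1.42.0, RLE scaling, other filters, other sets of samples, a replicate block, thinned libraries, left-out libraries and stricter thresholds.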

Additional observations from a re-analysis of the deposited data

Results flagged for a closer look

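Among 210 named genes tested for a library of AL 7R- ILC1s far from the other 3, 10 (4.8%) had one, and chance gives about 1 in 20. Replicate 2 was the highest in *Fasl*, at 537 CPM against 484 to 489 CPM in the others, and in *Tcrg-C4*, at 179 CPM against 133 to 137 CPM. It was the lowest in *Xcl1*, at 315 CPM against 413 to 423 CPM, in *Tspan9*, at 30.8 CPM against 53.3 to 54.4 CPM, and in *Ddit4*, at 26.7 CPM against 33.3 to 34.4 CPM. Replicate 1 was the highest in *Cst7*, at 401 CPM against 331 to 342 CPM, and the lowest in *Inpp4b*, at 145 CPM against 186 to 192 CPM. Replicate 4 was the lowest in *Klrc1*, at 1422 CPM against 1634 to 1671 CPM, and in *Sc5d*, at 31.2 CPM against 41.9 to 44.0 CPM. Replicate 3 was the highest in *Serpinb6b*, at 211 CPM against 192 to 194 CPM.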

How the results depend on the processing

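The counts of 1594 higher and 1580 lower genes in AL 7R- ILC1s against AL NK cells ranged from 957 to 1537 and from 1105 to 1564 when 1 library of the comparison was left out. The lowest count of higher genes was that without AL NK replicate 1. With an adjusted p under 0.01, 1050 genes were lower, and with an absolute log2 fold change over 1, 839 were higher and 812 lower. Against AL 7R+ ILC1s the counts of 375 higher and 477 lower genes ranged from 240 to 382 and from 343 to 451 with a library left out, with the lowest count of higher genes without AL 7R+ ILC1 replicate 3. They were 201 and 270 at an adjusted p under 0.01, and 149 and 252 with an absolute log2 fold change over 1.

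Deviations from the group means correlated at 0.0257 and 0.0444 between same-numbered libraries of the 2 groups. With 2 AL NK libraries their deviations mirror each other, so this cannot tell whether the numbers pair the samples. A fit with the replicate number as a block called 1429 higher and 1393 lower. Of 277 named genes, 265 were called, 217 of them in every fit, and none changed sign among the called values in any fit. Leaving out AL NK replicate 1 lost 26 of these calls and leaving out AL NK replicate 2 lost 34. With 2 AL NK libraries, fits with one of them left out assume that the lone library varies like the other groups. Of 1326 list counts under the alternatives, 1223 were within 1.5 times the reported count.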

Other observations

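Genes outside the lists were picked after their values were seen, and their differences are descriptions. The first were higher in AL 7R- ILC1s. *Epcam*, an adhesion molecule of epithelia, averaged 57.3 ± 18.4 CPM in AL 7R- ILC1s and 0.665 ± 0.94 CPM in AL NK cells (FC 6.22 ± 0.59, adjusted p = 4.00e-08), and was at 12.7 ± 2.97 CPM in AL 7R+ ILC1s. *Cdh17*, a cadherin of liver and intestine, averaged 77.2 ± 7.76 CPM in AL 7R- ILC1s and 2.86 ± 3.51 CPM in AL NK cells (FC 4.86 ± 0.86, adjusted p = 1.88e-04). Sums of 16 hepatocyte markers were also higher, at 12.4 to 17.1 CPM in AL 7R- ILC1s and 3.56 to 4.37 CPM in AL NK cells, and their part was not tested. *Tspan9*, a tetraspanin, averaged 48.2 ± 11.6 CPM in AL 7R- ILC1s and 0.127 ± 0.18 CPM in AL NK cells (FC 8.49). *Htra3*, a secreted serine protease, averaged 117 ± 21.9 CPM in AL 7R- ILC1s and 2.66 ± 2.69 CPM in AL NK cells (FC 5.34 ± 0.44, adjusted p = 5.02e-09) and 0.334 ± 0.477 CPM in AL 7R+ ILC1s. *Adam8*, a metalloprotease, averaged 91.99 ± 11.1 CPM in AL 7R- ILC1s and 1.08 ± 0.989 CPM in AL NK cells. *St14*, a membrane serine protease, averaged 44.3 ± 9.62 CPM in AL 7R- ILC1s and 2.98 ± 0.455 CPM in AL NK cells. *Klk8*, a kallikrein, averaged 63.9 ± 3.58 CPM in AL 7R- ILC1s and 3.24 ± 1.89 CPM in AL NK cells. *Podnl1*, a leucine-rich proteoglycan gene, averaged 198 ± 38.3 CPM in AL 7R- ILC1s and 3.39 ± 0.845 CPM in AL NK cells. *Dll1*, a Notch ligand, averaged 53.99 ± 9.68 CPM in AL 7R- ILC1s and 1.17 ± 1.298 CPM in AL NK cells. *Rbpj*, a nuclear effector of Notch, averaged 148 ± 9.902 CPM in AL 7R- ILC1s and 21.6 ± 4.71 CPM in AL NK cells. *Dtx1*, a target and regulator of Notch, averaged 119 ± 24.1 CPM in AL 7R- ILC1s and 22.1 ± 14.7 CPM in AL NK cells. Also higher were *Ptger3*, a receptor for prostaglandin E2 (25.3 ± 12.6 CPM in AL 7R- ILC1s and 1.52 ± 2.15 CPM in AL NK cells), *Ptgs1*, a cyclooxygenase (75.7 ± 7.398 CPM in AL 7R- ILC1s and 12.02 ± 0.611 CPM in AL NK cells), and *Lpar6*, a receptor for lysophosphatidic acid (453 ± 58.7 CPM in AL 7R- ILC1s and 36.1 ± 6.78 CPM in AL NK cells). *Fgl2*, a secreted fibrinogen-like protein gene, averaged 2587 ± 309 CPM in AL 7R- ILC1s and 604 ± 69.4 CPM in AL NK cells. *Asb2*, of a ubiquitin ligase, averaged 309 ± 33.4 CPM in AL 7R- ILC1s and 1.71 ± 0.265 CPM in AL NK cells. *Gcnt2*, a glycosyltransferase, averaged 52.7 ± 12.02 CPM in AL 7R- ILC1s and 0.381 ± 0.539 CPM in AL NK cells. *Myo6*, a myosin motor, averaged 345 ± 18.8 CPM in AL 7R- ILC1s and 65.1 ± 7.46 CPM in AL NK cells. *Tcrg-C4* averaged 146 ± 21.7 CPM in AL 7R- ILC1s and 9.96 ± 1.502 CPM in AL NK cells.

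Others were lower in AL 7R- ILC1s. *Lmna*, encoding lamins A and C, averaged 1.07 ± 1.08 CPM in AL 7R- ILC1s and 97.1 ± 0.766 CPM in AL NK cells (FC -6.65 ± 0.38, adjusted p = 1.30e-11). *Flna*, encoding filamin A, averaged 286 ± 65.2 CPM in AL 7R- ILC1s and 1342 ± 214 CPM in AL NK cells (FC -2.22 ± 0.15, adjusted p = 1.72e-10). *Sgk1*, a kinase activated by mTORC2, averaged 3.23 ± 1.45 CPM in AL 7R- ILC1s and 145 ± 6.49 CPM in AL NK cells (FC -5.56 ± 0.28, adjusted p = 1.44e-12). *Prr5l*, whose product binds mTORC2, averaged 3.01 ± 2.52 CPM in AL 7R- ILC1s and 160.4 ± 3.55 CPM in AL NK cells (FC -5.91 ± 0.39, adjusted p = 1.11e-10). *Lpin1*, a phosphatidate phosphatase, averaged 26.1 ± 6.47 CPM in AL 7R- ILC1s and 471 ± 86.8 CPM in AL NK cells. *Elovl7*, a fatty acid elongase, averaged 0.171 ± 0.126 CPM in AL 7R- ILC1s and 68.8 ± 13.2 CPM in AL NK cells. *Cmah*, which makes N-glycolylneuraminic acid, averaged 0.953 ± 0.313 CPM in AL 7R- ILC1s and 74.4 ± 3.04 CPM in AL NK cells. *Cd55*, a complement regulator, averaged 0.953 ± 1.52 CPM in AL 7R- ILC1s and 65.4 ± 0.793 CPM in AL NK cells. *Mef2c*, a transcription factor, averaged 1.61 ± 1.23 CPM in AL 7R- ILC1s and 43.2 ± 4.67 CPM in AL NK cells.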
